A study of Mus musculus and Homo sapiens with 60 samples.

Results

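The data described here are the Myc binding maps of human P493-6 cells at 0, 1 and 24 h after tetracycline was removed, 3 of the 60 samples of a series on Myc in 4 models. They were chosen by their titles and not by any measured value. P493-6 is a human B-cell line described in the labels as a B-cell lymphoma line, and it carries a Myc transgene that tetracycline represses. All groups used here grew in RPMI with 10% tetracycline-free serum. The 0 h cells were kept in 0.2 µg/mL tetracycline, for a time the labels do not give, so their transgene was repressed. The 1 h and 24 h cells had the same dose for 72 h and were then moved to fresh medium without it, for 1 h or 24 h. No group of the time course was labelled as given OHT. Chromatin was sonicated to fragments of about 250 bp and precipitated with the Myc antibody N262, and the DNA was sequenced (ChIP-seq). Each time point had 1 library and 1 deposited list of peaks, that is, of genome intervals where reads piled up above background. The same line gave lists of 2 histone marks and of RNA polymerase II (RNAPII) at 24 h and of RNAPII at 0 h, each also from 1 library. Myc lists of cells with low Myc (200 nM OHT, which activates the endogenous Myc gene, with 0.2 µg/mL tetracycline) and high Myc (untreated, transgene expressed) were used for a comparison of presence only, 1 library each.

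Myc is a transcription factor that binds DNA as a dimer with its partner Max, mainly at the E-box CACGTG and its variants. It is found mostly at promoters that are already open and marked, and also at enhancers. Its known target genes include those for ribosome building, nucleotide synthesis and cell growth. In B cells Myc is low at rest, rises within hours of stimulation and drives lymphoma when it stays high. H3K4me3 marks active promoters, H3K27ac marks active promoters and enhancers, and RNAPII marks genes being transcribed. A Myc peak on H3K4me3 is called promoter-like below, and one on H3K27ac without H3K4me3 is called distal.

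Many more Myc peaks were called 1 h after tetracycline removal than before it, and more again at 24 h. The lists held 791 peaks at 0 h, 8666 at 1 h and 18257 at 24 h. The list of 1 h was 11.0 times as long as the 0 h list, and the 24 h list 2.11 times as long as the 1 h list. The covered length was 0.259 Mb at 0 h, 4.47 Mb at 1 h and 9.99 Mb at 24 h, ratios of 17.2 and 2.24. Median peak widths were 285, 463 and 471 bp in the same order. With 1 library per time point there is no replicate spread to set these differences against, and no test was made of any of them. A time without a peak means that no peak passed the authors' threshold, since read depth cannot be read from peak lists.

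The 3 lists were merged into 19220 regions, each with 1 of 7 patterns of presence. The most common pattern was a peak at 24 h only, with 10696 regions or 55.7%. Next came 1 h and 24 h without 0 h, with 6734 regions or 35.0%. Peaks at all 3 times made up 554 regions or 2.88%, and 200 regions when each time's peaks had to cover 50% of the merged region. Keeping only the upper 50% of scores in each list left 241 of them, and keeping the 791 highest-scoring peaks left 185. With those 791 peaks, the 24 h only and the 1 and 24 h counts were 283 and 293. The most common pattern was then 0 h only, with 498 regions, and 1 h only had 254. In the patterns of 24 h only, of 1 and 24 h and of all 3 times, a peak, once called, was also called at each later time. As for the other patterns in the whole lists, 1038 regions (5.40%) had a peak at 1 h only, 113 at 0 h only, 46 at 0 and 1 h, and 39 at 0 and 24 h but not 1 h. In all, 489 regions joined more than 1 peak of the same time.

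**Figure D1:**
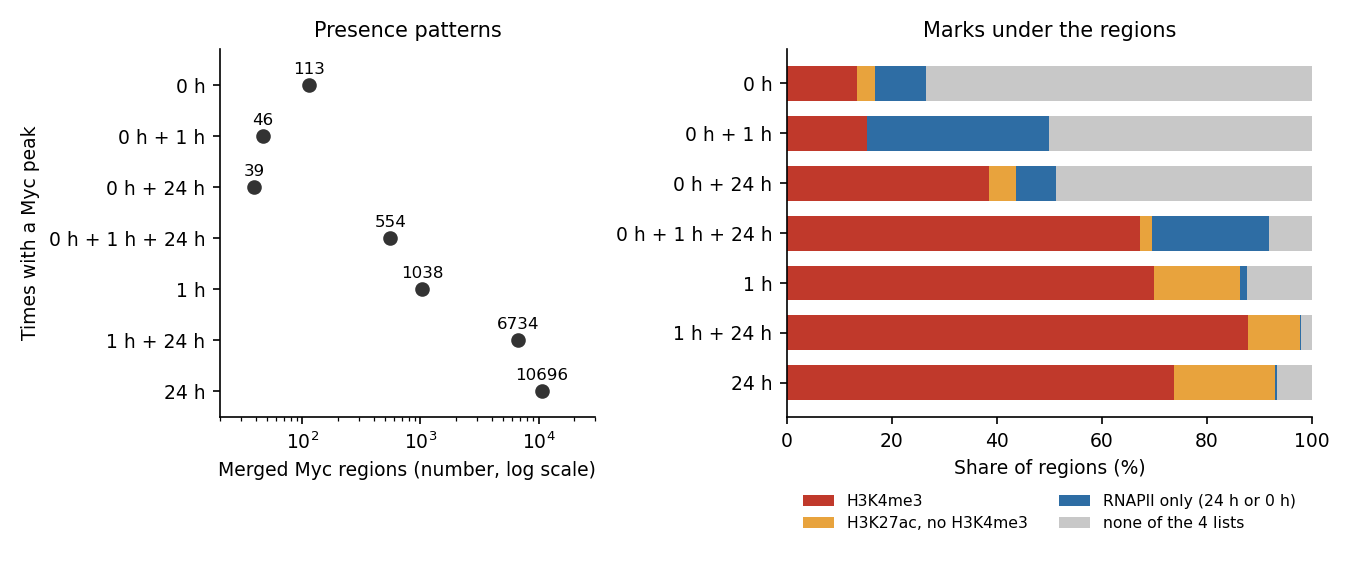
Left, number of merged Myc regions (log axis) for each pattern of presence at 0, 1 and 24 h. Right, share of those regions (%) on H3K4me3, on H3K27ac without H3K4me3, on RNAPII only and on none of the 4 lists; regions seen at 1 h or 24 h without 0 h were mostly promoter-like, and 73.5% of the 113 regions seen at 0 h only were on none of the 4 lists.

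As deposited, most peaks of an earlier list overlapped a peak of a later one. A 24 h peak overlapped 7581 of the 8666 peaks of 1 h, or 87.5% (exact 95% interval 86.8 to 88.2). From the 0 h list, 80.03% (77.1 to 82.8) had a counterpart at 1 h and 79.1% (76.1 to 81.9) at 24 h. Looking back, 41.2% of the 24 h list had a counterpart at 1 h and 3.30% at 0 h, while 7.03% of the 1 h list had one at 0 h. A longer list gives more chances of an overlap, and the intervals cover counting error only. With the lists set to equal length, at the 791 highest-scoring peaks each, 32.6% of 0 h peaks were found at 1 h and 28.8% at 24 h, and 60.9% of 1 h peaks at 24 h.

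Whether a peak was seen at both times followed its score. The score is the authors' own value for a peak, which MACS derives from its p-value so that stronger peaks score higher. It is used here only to rank peaks within a list. From the lowest to the highest score decile of the 1 h list, the share found at 24 h ran from 68.7% to 99.9%. In the highest decile 866 of 867 peaks were found. Read the other way, the share of 24 h peaks found at 1 h ran from 11.0% in the lowest decile to 94.4% in the highest. So most of the strongest 24 h peaks had a 1 h peak, and most of the weak ones did not. For the 0 h list the share found at 24 h was 68.4% in the lowest decile (79 peaks) and 96.3% in the highest (80 peaks).

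**Figure D2:**
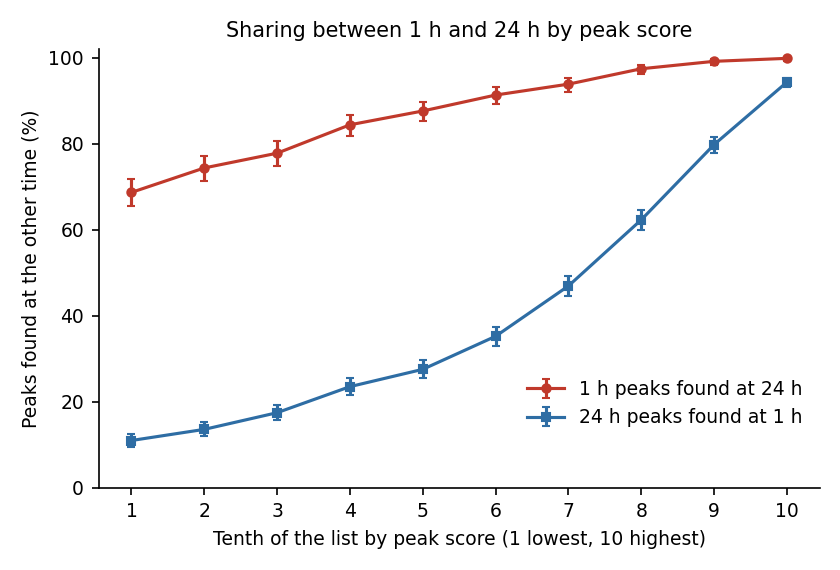
Share of peaks found at the other time (%, exact 95% intervals) against the decile of the peak's score in its own list. The line of 1 h peaks found at 24 h runs from 68.7% to 99.9%, and the line of 24 h peaks found at 1 h from 11.0% to 94.4%.

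New 24 h peaks, those with no peak at 0 or 1 h, were narrower and ranked lower than kept ones. The 10696 new peaks had a median width of 394 bp, against 637 bp for the 7561 kept peaks. Their median score percentile in the 24 h list was 34.8, against 75.2 for kept peaks. The middle of each set barely met: the upper quartile of new peaks lay at percentile 55.1 and the lower quartile of kept peaks at 52.9. The 1085 peaks of the 1 h list that were not found at 24 h were also narrow and low, with a median width of 324 bp and percentile of 22.1, against 484 bp and 54.9 for the 7581 that were found. The 0 h list showed the same order, with 147 bp and percentile 28.8 for peaks seen only then, against 301.5 bp and 54.3 for those found later. When only the 791 highest-scoring peaks of each list were kept, the median width of new minus kept peaks was 38.5 bp, against -243 bp in the whole lists.

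**Figure D3:**
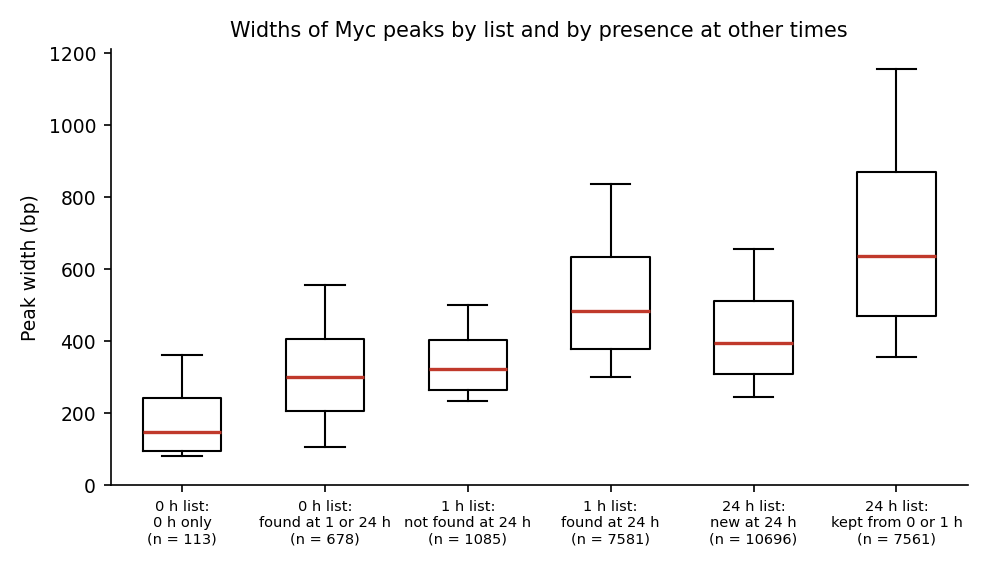
Width (bp) of Myc peaks in each list, split by presence at the other times. Boxes span the quartiles with the median in red and whiskers the 10th and 90th percentiles; in the 24 h list new peaks had a median of 394 bp and kept peaks 637 bp.

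At sites with a peak at both times, the 24 h peak was mostly wider than the 1 h peak. A total of 6821 regions held exactly 1 peak at each of these times. Their peaks had median widths of 638 bp at 24 h and 483 bp at 1 h, and 79.2% were wider at 24 h. The median ratio of widths, 24 h over 1 h, was 1.26, with 10th and 90th percentiles of 0.867 and 1.99. The part that read depth has in this difference was not tested. The ranking of these sites was partly preserved, with a Spearman correlation of 0.608 between score percentiles at 24 h and 1 h. The correlation is across 6821 regions of a single pair of libraries, which are not independent replicates. Of the 763 regions in the highest decile of the 1 h list, 85.1% were also in the highest decile at 24 h. The highest decile is larger at 24 h, with 1826 peaks against 867 at 1 h. Among the 791 highest-scoring peaks of each list, 60.9% of 1 h peaks were found at 24 h.

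**Figure D4:**
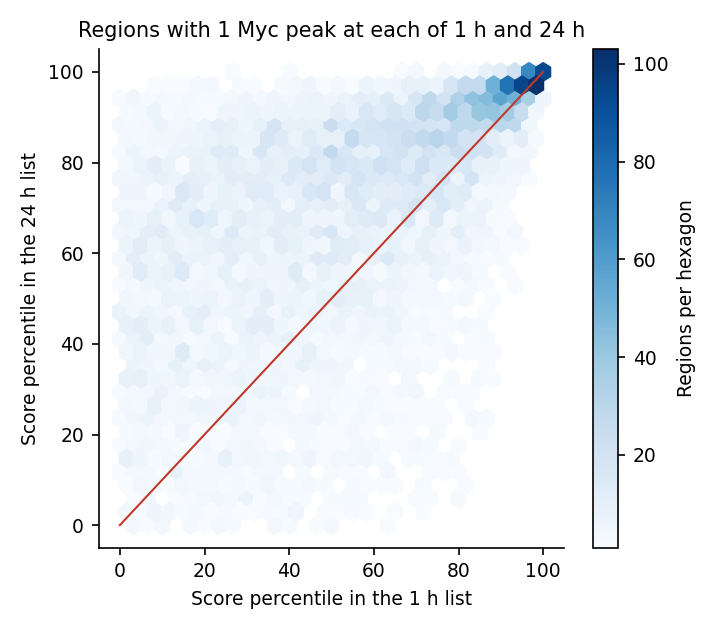
Score percentile in the 24 h list (y axis) against that in the 1 h list (x axis) for the 6821 regions with 1 peak at each time; colour gives regions per hexagon and the red line marks equal percentiles. Most regions lie above the line, with medians of 75.5 at 24 h and 54.9 at 1 h, but the 24 h list also holds 10696 new peaks of median percentile 34.8, so a place above the line shows no gain in strength.

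The marks under Myc differed between the times. H3K4me3 of the 24 h cells lay under 53.6% of 0 h peaks (exact 95% interval 50.1 to 57.1), 84.2% of 1 h peaks (83.4 to 85.0) and 79.0% of 24 h peaks (78.4 to 79.5). For H3K27ac the shares were 49.2%, 92.2% and 91.9%. For RNAPII of the 24 h cells they were 62.7%, 65.1% and 51.1%, and for RNAPII of the 0 h cells 54.2%, 44.8% and 33.7%. So the 1 h peaks lay mostly on promoter-like, acetylated chromatin, while 21.5% of the 0 h peaks lay on RNAPII without either histone mark, against 1.97% and 1.12% at 1 and 24 h. Distal peaks made up 2.28% of the 0 h list, 9.91% of the 1 h list and 15.0% of the 24 h list. Peaks on none of the 4 mark lists made up 22.6%, 3.89% and 4.96%. The marked length is small: H3K4me3 covered 2.22% of the length that peaks of these cells reached, H3K27ac 4.82%, RNAPII at 24 h 0.566% and RNAPII at 0 h 0.275%. No H3K4me3 or H3K27ac list of the 0 h or 1 h cells was used, so marks of the 24 h cells stand in for the earlier times.

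The peaks new at 24 h had a lower share on promoter-like chromatin and on RNAPII than the kept ones, by an amount that depended on which scores were included. Of the new 24 h peaks, 73.8% (73.0 to 74.7) lay on H3K4me3, against 86.2% (85.4 to 87.0) of kept peaks, a difference of -12.4 percentage points. RNAPII of the 24 h cells lay under 38.1% of new and 69.5% of kept peaks, and RNAPII of the 0 h cells under 23.4% of new and 48.3% of kept peaks. H3K27ac differed little, at 90.5% of new and 93.9% of kept peaks. Distal peaks were 19.1% of the new and 9.14% of the kept. These traits were not particular to peaks gained late, as 1 h peaks not found at 24 h differed in the same direction. H3K4me3 lay under 67.6% of them, against 86.6% of 1 h peaks that were found at 24 h. RNAPII of the 24 h cells lay under 35.2% against 69.3%, and 15.8% against 9.08% were distal. Among the 791 highest-scoring peaks per list, new minus kept was -3.13 points for H3K4me3, -8.82 for RNAPII of the 24 h cells and -20.5 for RNAPII of the 0 h cells, against -12.4, -31.4 and -24.9 in the whole lists. Among peaks at or above the median score the H3K4me3 difference was -6.83 points. The H3K27ac difference changed sign, at 2.21 and 0.0216 points in these subsets, against -3.44 in the whole lists.

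The gap in RNAPII was also present within quartiles of the 24 h score. Quartiles match rank only roughly, as the share found at 1 h was 79.8% in decile 9 and 94.4% in decile 10. In the highest score quartile, RNAPII of the 24 h cells lay under 59.5% of 770 new peaks and 79.99% of 3799 kept peaks. In the lowest quartile it lay under 28.9% of 3935 new peaks and 48.6% of 629 kept peaks. The gap in H3K4me3 was smaller within quartiles, with 87.0% of new and 91.2% of kept peaks in the highest and 68.6% and 74.2% in the lowest. H3K27ac was not lower in new peaks in any quartile, unlike in the whole list. It lay under 97.9% of new and 97.8% of kept peaks in the highest quartile, and 86.5% and 83.6% in the lowest. Distal peaks were 11.7% of new and 6.95% of kept peaks in the highest quartile, and 21.5% of new and 13.8% of kept peaks in the lowest.

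Seen from the promoters, the share of H3K4me3 peaks with Myc was at each time highest where RNAPII was present at both ends of the time course. Of the 29953 H3K4me3 peaks of the 24 h cells, 394 (1.32%) had a Myc peak at 0 h, 6362 (21.2%) at 1 h and 11412 (38.1%) at 24 h. Of the 6337 with RNAPII at both 24 h and 0 h, the shares were 4.26%, 53.7% and 77.9%. Where RNAPII was present at 24 h only (4470 peaks) they were 1.81%, 35.8% and 63.1%, and where it was present at 0 h only (602 peaks) 1.33%, 19.3% and 45.3%. The 18544 H3K4me3 peaks with no RNAPII peak had Myc at 0.189%, 6.72% and 18.2%. At 1 h the interval was 52.4 to 54.9 for H3K4me3 peaks with RNAPII at both times and 6.37 to 7.09 for those without RNAPII. These intervals cover counting error within 1 library only and are no test. The classes also differed in median width, at 3437 bp and 1370 bp.

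H3K4me3 peaks with Myc at 24 h only carried RNAPII in a lower share than those with Myc at both 1 and 24 h. Of the H3K4me3 peaks with Myc at 24 h, 51.7% already had it at 1 h. That share was 66.4% where RNAPII was present at both times, 53.0% where it was present at 24 h only and 30.5% where there was none. H3K4me3 peaks with Myc at 24 h only numbered 5498, had a median width of 2442.5 bp and carried RNAPII of the 24 h cells at 54.1%. The 5530 with Myc at 1 and 24 h had a median of 3177 bp and carried RNAPII at 80.2%. The 370 with Myc at all 3 times had 3766 bp and 90.8%. The 458 with Myc at 1 h only had 2349.5 bp and 49.6%, below those with Myc at 24 h only. The sets with Myc at 1 h only and at 24 h only thus both had lower shares than the set with Myc at 1 and 24 h. Among merged regions, those seen at 1 h only had a median percentile of 21.5 in the 1 h list. Regions of 1 and 24 h had 53.7, and timing was not separated from score. Against these, 18073 H3K4me3 peaks (60.3%) had Myc at none of the 3 times, with a median of 1405 bp, RNAPII at 15.6% and H3K27ac at 73.2%.

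Wide H3K4me3 peaks were bound more often than narrow ones at every time. In the widest quartile (2897 bp or more) Myc lay on 3.76%, 48.9% and 73.9% at 0, 1 and 24 h, and in the narrowest quartile (1185 bp or less) on 0.213%, 4.76% and 11.6%. A wide interval also has more room for an overlap. Within a width quartile the order by RNAPII was the same: in the widest, 57.3% of H3K4me3 peaks with RNAPII of the 24 h cells had Myc at 1 h, against 17.3% of those without, and in the narrowest 23.8% against 3.51%. H3K27ac divided H3K4me3 peaks in the same way. Of those with H3K27ac 25.2% had Myc at 1 h and 45.0% at 24 h, against 1.80% and 4.26% of the 5099 without it.

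**Figure D5:**
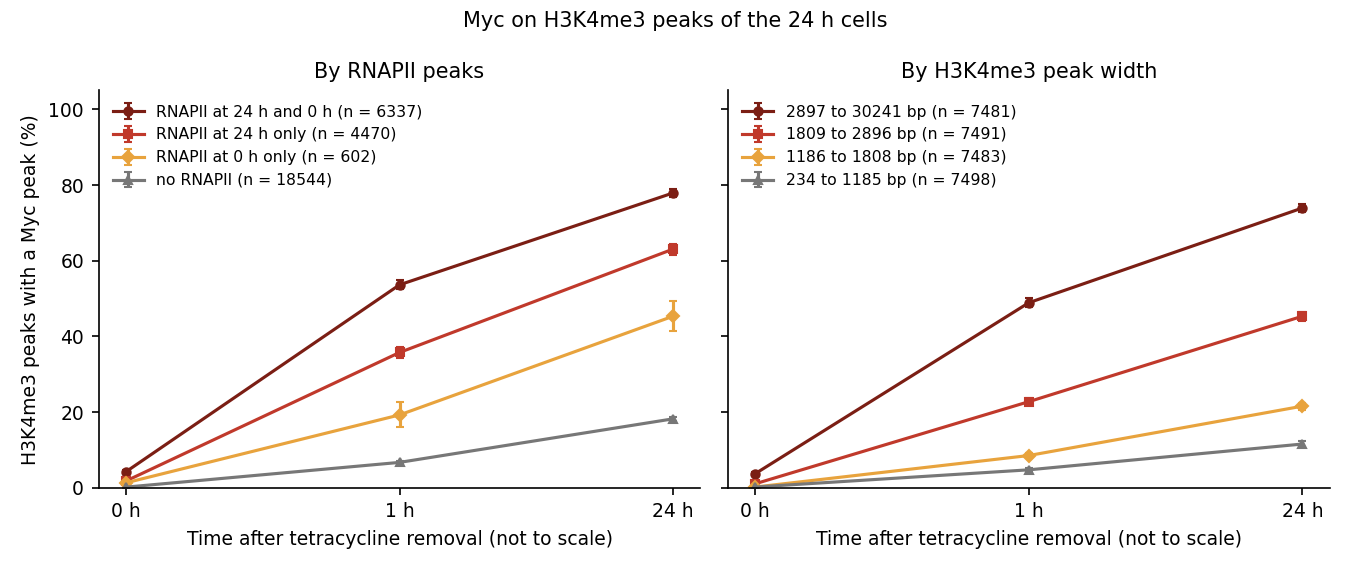
Share of H3K4me3 peaks of the 24 h cells that overlapped a Myc peak (%, exact 95% intervals) at 0, 1 and 24 h, split by RNAPII peaks (left) and by width of the H3K4me3 peak (right). H3K4me3 peaks with RNAPII at both times run from 4.26% to 77.9% and those without RNAPII from 0.189% to 18.2%.

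Within a bound H3K4me3 peak Myc lay mostly towards the middle, with new and kept peaks at similar distances. The distance from the Myc midpoint to the H3K4me3 midpoint had a median of 421 bp for new and 444 bp for kept 24 h peaks. The central 50% of the H3K4me3 peak held 71.5% of new and 76.7% of kept peaks. H3K4me3 peaks with more than 1 Myc peak were 4.06% of those bound at 0 h, 12.4% at 1 h and 20.5% at 24 h, with up to 10, 7 and 10 Myc peaks on a single H3K4me3 peak, each Myc peak being counted on 1 H3K4me3 peak. Of the 7897 new promoter-like peaks, 1585 (20.1%) lay on an H3K4me3 peak that already had Myc at 1 h. That was no more than the 21.2% of all H3K4me3 peaks that had Myc at 1 h. Of all new 24 h peaks, 21.6% lay within 5 kb of a 1 h peak, and the median distance was 35.3 kb. No background share was computed for this distance.

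At distal acetylated chromatin a far smaller share of sites had Myc than at H3K4me3 peaks. Of the distal sites bound at 24 h, a smaller share was also bound at 1 h than among all H3K4me3 peaks. The H3K27ac peaks without H3K4me3 numbered 33479, and Myc lay on 12 of them at 0 h (0.0358%), 658 at 1 h (1.97%) and 2060 at 24 h (6.15%). H3K27ac peaks with H3K4me3 had Myc at 1.45%, 25.3% and 44.8%. Of the distal peaks bound at 24 h, 25.9% (24.0 to 27.9) were already bound at 1 h, below the 30.5% (28.9 to 32.1) of H3K4me3 peaks without RNAPII. That comparison is not matched for width. In the narrowest quartile of H3K4me3 peaks, those without RNAPII of the 24 h cells had 27.1% (23.8 to 30.5). H3K4me3 peaks without H3K27ac had 28.6% (22.7 to 35.1), and both intervals overlap that of the distal peaks. The 604 distal peaks with RNAPII of the 24 h cells were bound at 1.16%, 11.6% and 25.2%, and the 32875 without it at 0.0152%, 1.79% and 5.80%. Binding also went with width, with 14.9% of the widest quartile (2014 bp or more) and 1.81% of the narrowest (883 bp or less) bound at 24 h.

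RNAPII peaks present at both ends of the time course carried Myc more often than those seen at one end. Of RNAPII peaks of the 24 h cells, 15068 had no RNAPII at 0 h and 9545 did. Myc lay on 0.697%, 12.5% and 22.6% of the first set at 0, 1 and 24 h, and on 3.88%, 37.0% and 55.3% of the second. The 2532 RNAPII peaks of the 0 h cells with none at 24 h had Myc at 1.90%, 8.41% and 17.3%. RNAPII peaks seen at 24 h and not 0 h were narrower, with a median of 419.5 bp against 775 bp for those also seen at 0 h. At 24 h Myc lay on 61.1% of the RNAPII peaks that were on H3K4me3 and 2.94% of those off it.

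The 0 h list divided by histone mark into sets that differed in width and rank. Of its peaks, 442 or 55.9% lay on H3K4me3 or H3K27ac. Of these 91.4% were found at 1 h and 93.9% at 24 h, and 82.8% had RNAPII of the 24 h cells. The other 349, or 44.1%, lay on neither histone mark. These were narrower, with a median of 179 bp against 326 bp, yet ranked higher, at a median score percentile of 60.9 against 43.0. Of them 65.6% were found at 1 h and 60.5% at 24 h, and 37.2% overlapped RNAPII of the 24 h cells and 44.4% RNAPII of the 0 h cells. Among peaks at or above the median score, H3K4me3 lay under 47.2% at 0 h, below the share in the whole list, but under 88.5% at 1 h and 86.2% at 24 h, above it.

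The unmarked 0 h peaks were crowded into a few stretches. There were 9 windows of 1 Mb with 10 or more of them each, picked after the values were seen, and these held 164 of the 349. The largest numbers of unmarked 0 h peaks were 32 on chromosome 10 between 42356084 and 42666974, 24 on chromosome 16 between 46385792 and 46435570, and 24 on chromosome 4 between 49111499 and 49659953. All Myc peaks in the 9 windows numbered 193 at 0 h, 179 at 1 h and 174 at 24 h. They made up 24.4% of the 0 h list, 2.07% of the 1 h list and 0.953% of the 24 h list. In these windows the number of Myc peaks was nearly flat over time, while outside them it was 598, 8487 and 18083. RNAPII had 103 peaks there at 24 h and 124 at 0 h, H3K4me3 54 and H3K27ac 43. Repeat content and mappability of these windows were not tested. Without the windows, H3K4me3 lay under 66.1% of 0 h peaks, and the list of 1 h was 14.2 times as long as that of 0 h. Both shifts follow in direction from the choice of windows, which were picked for their unmarked 0 h peaks.

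Chromosome Y held 26 peaks at 0 h, 25 at 1 h and 26 at 24 h, of which 24, 24 and 22 lay in 1 of these windows. Mitochondrial DNA held 8, 2 and 5 peaks.

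The regions with the highest mean score percentile in each main pattern are single cases. Coordinates are on hg19 and counted from 1, and no gene annotation on hg19 was used, so regions are not assigned to genes. Of all 554 regions with Myc at all 3 times, 67.3% lay on H3K4me3 and 22.4% on RNAPII alone, against 87.9% and 0.208% of the 6734 regions with Myc at 1 and 24 h. The 5 highest of the first pattern were unlike most of it: none had H3K4me3 and all 5 had RNAPII at 24 h and 0 h. They were chr1:121484078-121485472, the only one with H3K27ac, chr6:58776449-58779383, chr7:61968617-61969734, chr18:18517032-18520504 and chr18:107845-109979. The chromosome 7 region lay in a window crowded with unmarked 0 h peaks, and the others did not. Repeat content and mappability were not tested at any of them. The chromosome 6 region had a peak of 2910, 2935 and 2912 bp at 0, 1 and 24 h. The chromosome 7 region had 2 peaks at 0 h and chr18:18517032-18520504 had 3, each joined by 1 peak at 1 h and 1 at 24 h.

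All 5 highest regions with Myc at 1 and 24 h but not 0 h were promoter-like, with H3K4me3, H3K27ac and RNAPII of the 24 h cells. They were chr10:103911692-103912949, chr2:73511453-73512900, chr4:57300997-57303616, chr2:29117097-29118877 and chr4:146018923-146020276. RNAPII of the 0 h cells was present at all but chr4:57300997-57303616. At chr2:73511453-73512900 the peak was 1448 bp wide at 24 h, against 1369 bp at 1 h. In each of these 5 regions the highest-scoring peak at 24 h was wider than that at 1 h.

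The 5 highest regions with Myc at 24 h only ranked at percentiles 97.7 to 98.4 of that list. They were chr17:64537495-64538935, chr1:28836024-28837884, chr8:10190955-10192637, chr15:85523338-85524753 and chr22:23284330-23285372. The first 4 had H3K4me3 and all 5 had H3K27ac. RNAPII of the 24 h cells was at the regions on chromosomes 1, 8 and 15, and RNAPII of the 0 h cells at those on chromosomes 1 and 15. The chromosome 22 region was distal, with H3K27ac alone.

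Among regions with no peak at 24 h, the highest seen at 1 h only were chr19:56592018-56592641 (percentile 92.1 of the 1 h list, with H3K4me3, H3K27ac and RNAPII of the 24 h cells), chr3:46130766-46131240 (89.5, H3K27ac alone) and chr1:219347064-219347595 (85.7, all 4 lists). The highest regions seen at 0 h only were chr1:249239881-249240358, at percentile 96.2 of the 0 h list, chr10:39151107-39151211 and chr7:61968055-61968140, and the only mark at any of them was H3K4me3 at the second. Those seen at 0 and 1 h but not 24 h were chr10:42390257-42392061, at percentile 93.4 of the 0 h list and 61.8 of the 1 h list, chr9:78789980-78790236 and chrY:13859818-13860105. None of these 3 had a histone mark. The regions chr7:61968055-61968140, chr10:42390257-42392061 and chrY:13859818-13860105 lay in windows crowded with unmarked 0 h peaks.

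The 3 widest Myc peaks at 24 h all lay over Myc peaks of 0 h and 1 h. The widest, chr8:128750034-128754174, was 4141 bp at 24 h and had peaks of 3449 bp at 0 h and 3438 bp at 1 h. The interval called there was thus already wide in the 0 h list. Copy number and mappability of this region were not tested, so the width alone does not show Myc binding along it. Its score percentile within each list was 90.8, 89.0 and 99.98 at 0, 1 and 24 h, and as the lists differ in length these percentiles show no change of rank. At chr17:37909371-37913118 the peak was 465 bp at 0 h, 3061 bp at 1 h and 3748 bp at 24 h, with percentiles of 19.1, 99.5 and 99.98. At chr17:56405312-56409036 there were 3 peaks at 0 h, the highest 512 bp wide, 3 at 1 h, the highest 1572 bp wide, and 1 of 3725 bp at 24 h. All 3 lay on H3K4me3, H3K27ac and RNAPII of both times.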

How the data were processed

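The submitters' processing notes name BWA 0.6.2, SAMtools, MACS 1.4.1 and, for the time course, hg19. Settings are not stated in the notes as used here. The series' design text names an input library of another series for the 1 h and 24 h Myc and the 24 h RNAPII lists, and for lists called NoMyc, a title no sample here has. The deposited score is the authors' value per peak, from 80.01 to 3233.06 over the lists used, and peaks were called per library. The 1 h list lacked 59 of its peak numbers, H3K4me3 4 and RNAPII at 24 h 2, for which no source used here states a reason. Read depth is unknown.

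A peak was shared or marked when at least 1 bp overlapped. Shares have exact (Clopper-Pearson) 95% binomial intervals, which cover counting error only. Score percentiles rank peaks within a list, ties at their mean rank. Named regions were those with the highest mean score percentile per pattern and the 3 widest 24 h peaks. The members, groupings and rules were chosen with earlier results of these data known. Planned gene lists, B-cell markers and motif searches were not analysed here, so the labelled cell type was not checked against marker genes. Python 3.11.15, numpy 2.4.6, pandas 2.3.3, scipy 1.17.1 and matplotlib 3.10.9 were used. Presence calls on simulated peaks drawn from the 3 lists had 0 errors, and overlaps gave the same counts as bedtools 2.31.1 in 12 of 12 checks.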

Additional observations from a re-analysis of the deposited data

How the results depend on the processing

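With peaks set to 500 bp around their midpoints, none of the main results tried moved beyond its interval, or by more than 1.5 times for a count. With a score of 100 or more, both ratios of peak number stayed within 1.5 times. By covered length, 1 h over 0 h became 17.2.

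With peaks at or above each list's median score, 72.2% of 0 h peaks were found at 1 h and 68.7% at 24 h. H3K4me3 lay under 47.2%, 88.5% and 86.2% of 0, 1 and 24 h peaks, and Myc on 0.591%, 12.0% and 23.4% of H3K4me3 peaks. Regions at 24 h only, at 1 and 24 h and at all 3 times numbered 5333, 3495 and 241. New minus kept 24 h peaks differed by -6.83 points for H3K4me3, 0.0216 for H3K27ac (turned), -24.5 for RNAPII of 24 h and -21.7 for RNAPII of 0 h, and by -199 bp.

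With the 791 highest-scoring peaks per list, 32.6% of 0 h peaks were found at 1 h and 28.8% at 24 h, and 60.9% of 1 h peaks at 24 h. H3K4me3 lay under 94.6% of 1 h and 94.9% of 24 h peaks, and Myc on 2.46% and 2.49% of H3K4me3 peaks. The 3 pattern counts were 283, 293 and 185, while 498 regions were at 0 h only and 254 at 1 h only. New minus kept differed by -3.13, 2.21 (turned), -8.82 and -20.5 points, by 38.5 bp (turned) and by -29.1 percentile points. This alternative fixes the list lengths by construction.

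When 50% of the peak had to be overlapped, 85.5% of 1 h peaks were found at 24 h and H3K4me3 lay under 78.0% of 24 h peaks. For regions, each time's peaks had to cover 50% of the merged region, and 200 were then present at all 3 times. Narrow peaks meet that rule less often: the 0 h peaks had a median width of 285 bp and the regions of all 3 times 866 bp. New minus kept differed by -9.68, -27.8 and -17.7 points for H3K4me3 and RNAPII of 24 h and 0 h, by -212 bp and by -37.5 percentile points. Without the crowded windows, an alternative added after the data were seen, H3K4me3 lay under 66.1% of 0 h and 85.7% of 1 h peaks, and the H3K27ac difference was -5.26 points. Where a value moved, the cause was not tested beyond what these constructions fix. No paired analysis was possible because each time point had 1 library and no test was made.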

Other observations

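The presence patterns were also set against the Myc lists of P493-6 cells with low Myc (200 nM OHT with 0.2 µg/mL tetracycline) and with high Myc (untreated), 1 library each. The label of the high Myc list names the mouse build mm9, but its chromosome 1 peaks reach 249219825, like the hg19 lists, and it was read as hg19. High Myc cells had a peak at 77.2% of regions seen at 24 h only, 68.3% of those seen at 1 h only, 97.4% of those seen at 1 and 24 h and 86.6% of those seen at all 3 times. Low Myc cells had one at 6.45%, 4.43%, 36.7% and 85.0% of the same sets. The high Myc list held 26146 peaks and the low Myc list 4309, and a longer list gives more chances of an overlap. Of all 24 h peaks, 85.1% overlapped a high Myc peak and 20.2% a low Myc peak. Regions seen at 0 h only were found in 12.4% with high Myc and 19.5% with low Myc. Of the 1038 regions seen at 1 h and absent at 0 and 24 h, 709 were thus bound in untreated cells.

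Of the 733 promoter-like 1 h peaks that were not found at 24 h, 267 (36.4%) lay on an H3K4me3 peak that held another Myc peak at 24 h. That was no more than the 38.1% of all H3K4me3 peaks that had Myc at 24 h. Of all 1085 1 h peaks not found at 24 h, 39.4% lay within 5 kb of a 24 h peak, and no background share was computed for this distance.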
